A study of Mus musculus with 8 samples.

Results

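The sirtuins are a family of enzymes that remove acetyl and other acyl groups from proteins and use up NAD+ in the reaction. The 7 genes described here, Sirt1 to Sirt7, were chosen by name from a gene table of mouse embryonic stem cells, on the condition that they had a value there. All 7 had values, and they are 7 of 17488 genes with values among 48321 listed. The members with the lowest values, Sirt4 and Sirt5, still had 55 and 73 or more estimated reads in every library, so no sirtuin lay near the edge of that condition.

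RNA was sequenced from E14 embryonic stem cells (strain 129/Ola) in 8 libraries, 2 in each of 4 groups. The GSK3β line was Gsk3β-/- and carried a transgene for Gsk3β-L132G, and the GSK3α line was Gsk3α-/- and carried a transgene for Gsk3α-L195G. GSK3α and GSK3β are paralogous kinases that act in Wnt signalling and many other pathways, and both changes make the kinase analog-sensitive, meaning that they let a bulky inhibitor such as 3MB-PP1 into the ATP pocket. All cells spent 6 h in N2B27 medium without serum, and the treated groups then received 5 µM 3MB-PP1 for 2 h. Every group therefore lacks 1 endogenous paralog and retains the other, which has no analog-sensitive change. Each mutant kinase is represented by 1 line, the labels name no vehicle for the untreated cells and no line without a mutant kinase, and the promoter of the transgenes is not given in the sources used here. Nothing in the labels says whether the libraries of a group came from separate cultures, and p-values then speak only of the spread between libraries, which may be technical.

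Sirtuins differ in where they work. SIRT1, SIRT6 and SIRT7 are mainly nuclear, SIRT2 is mainly cytosolic, and SIRT3, SIRT4 and SIRT5 are mitochondrial. SIRT1 deacetylates histones and transcription factors such as p53 and the FOXO proteins, and it is known as the abundant sirtuin of mouse embryonic stem cells, where its level falls on differentiation.

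The values are estimated gene counts that the authors scaled to the same upper quartile in each library, so they are relative to the library and not to gene length. By estimate, 31.2 and 32.4 M reads fell on genes in the GSK3β line with 3MB-PP1, against 23.8 and 28.9 M in the same line untreated. The GSK3α line had 26.0 and 26.4 M with 3MB-PP1, against 21.5 and 22.7 M untreated. The treated libraries were thus the deeper ones in both lines. Libraries of a group correlated across genes with r of 0.998 to 0.999. The paralog named in a line's label was the higher one there, though reads of a transgene may count toward its gene and the knockout itself is not checked by this. Gsk3b averaged 245 ± 14.9 (SD, n = 2) in the untreated GSK3β line and 56.5 ± 2.50 in the untreated GSK3α line, and Gsk3a averaged 77.0 ± 1.21 in the untreated GSK3β line and 158 ± 3.31 in the untreated GSK3α line. With 3MB-PP1, Gsk3b averaged 253 ± 6.53 in the GSK3β line and 54.0 ± 1.82 in the GSK3α line, and Gsk3a 78.8 ± 1.62 and 141 ± 0.253. The lower Gsk3a of the treated GSK3α line had an adjusted p of 0.0345 by limma, and of 0.0669 with quantile normalization. All 10 of 10 embryonic stem cell markers had values, and their summed level ran from 6550 to 6740 over the 8 libraries. Of 8 markers each, 4 of fibroblasts had values, with sums of 11.3 to 16.1, and 7 of primitive endoderm, with sums of 11 to 12.6. Col3a1, Dcn, Lum and Postn of the first list and Foxa2 of the second had no values.

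Sirt1 was by far the highest sirtuin. Per kilobase of exon (GENCODE M21 gene models on mm10), the mean level over the 8 libraries was 33.2 for Sirt1, with single libraries from 24.6 to 42.8. The sirtuin exons counted here, and in the overlaps with other genes below, are those of coding transcripts in the basic set of GENCODE. Sirt3 had 10.2 per kilobase (9.21 to 11.2) and Sirt6 had 9.70 (9.23 to 10.4). Sirt7 had 6.11 (5.21 to 7.34) and Sirt2 5.15 (4.68 to 5.72), while Sirt4 had 1.42 (0.865 to 1.92) and Sirt5 1.30 (1.10 to 1.72). In this order the neighbours Sirt3 and Sirt6, Sirt7 and Sirt2, and Sirt4 and Sirt5 overlapped in their ranges. With the length of the longest of these coding transcripts in place of all their exons, Sirt6 (11.9 per kilobase) came before Sirt3 (11) and Sirt5 (2.14) before Sirt4 (1.62). Not corrected for length, the mean value of Sirt1 was 147, which is higher than that of 92.4% of genes with values. Sirt6 (22.5), Sirt3 (17.6), Sirt2 (11.6) and Sirt7 (11) lay at the 60.5, 55.8, 49.1 and 48.3 percentile of the table, and Sirt5 (3.84) and Sirt4 (2.90) at the 35.3 and 32.1 percentile.

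**Figure D1:**
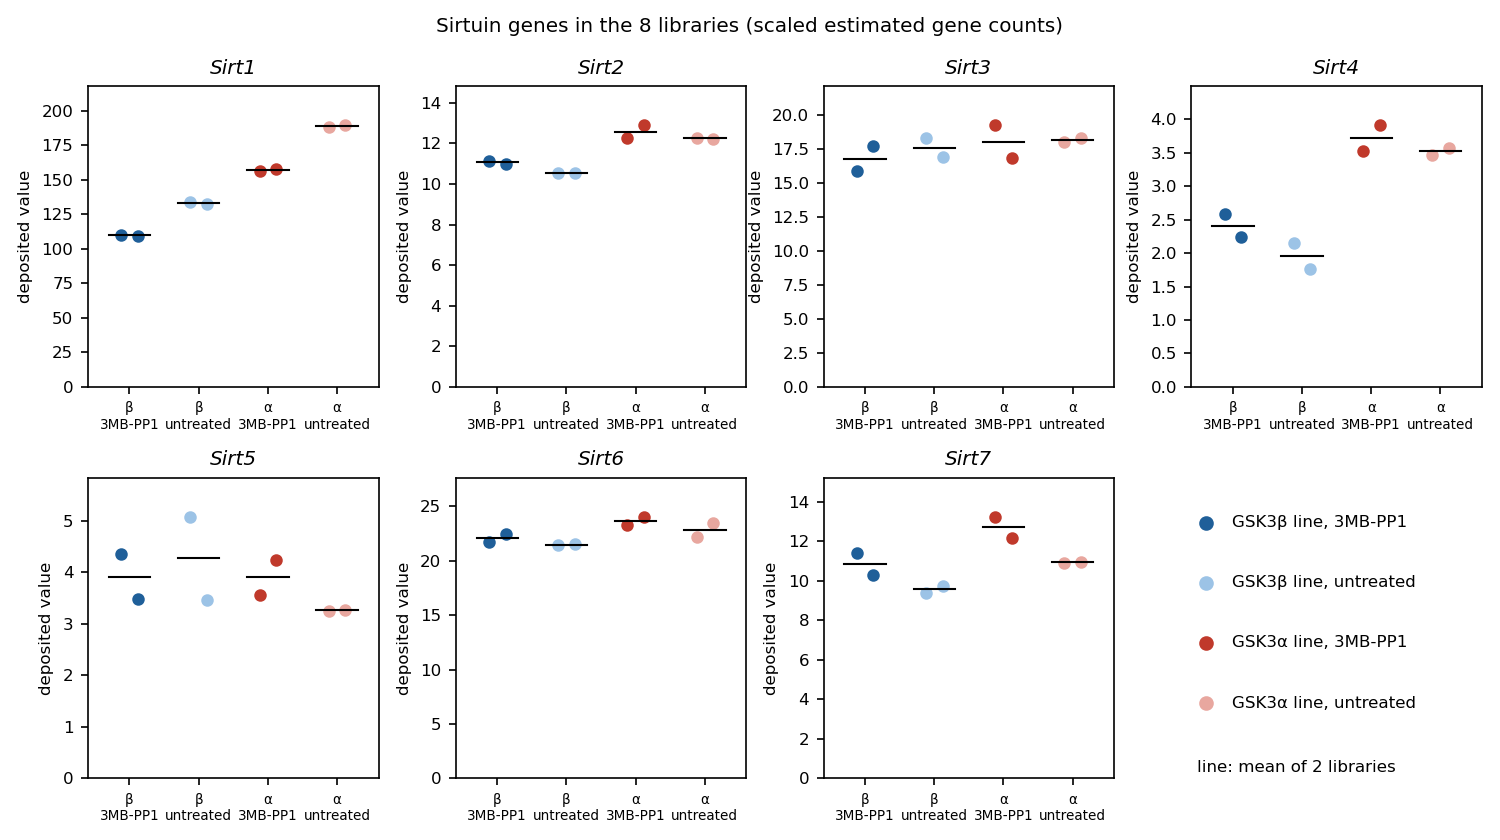
Deposited value of each sirtuin gene (scaled estimated gene counts, linear axis from 0) in the 8 libraries, with points for single libraries and lines for group means of 2. Sirt1 libraries with 3MB-PP1 (109 to 110 in the GSK3β line, 156 to 158 in the GSK3α line) lie below the untreated libraries of the same line (133 to 134 and 188 to 189).

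Sirt1 (chromosome 10, 63319005 to 63381704, minus strand) encodes the nuclear deacetylase SIRT1. It had values of 110 and 109 in the GSK3β line with 3MB-PP1, against 134 and 133 in the untreated GSK3β line. The values were 156 and 158 in the GSK3α line with 3MB-PP1, against 188 and 189 in that line untreated. Treated and untreated libraries did not overlap in either line, and the libraries of each group lay within a few units of each other. Sirt1 fell by 17.5% with 3MB-PP1 in the GSK3β line, a log2 change of -0.28 (SE 0.0308, 95% interval -0.34 to -0.21, adjusted p = 3.80e-06 by limma). In the GSK3α line it fell by 16.8%, a log2 change of -0.27 (SE 0.0308, interval -0.33 to -0.20, adjusted p = 0.000144). Changes are on the log2(value + 1) scale, adjusted p-values here and later come from limma, corrected by Benjamini and Hochberg over the whole set of 13959 tested genes, and the threshold is 0.05. The ratio of the group means, treated over untreated, was 0.824 in the GSK3β line and 0.831 in the GSK3α line.

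Sirt1 was the 1 of 7 sirtuins called lower in each line. Of all tested genes, 7.44% were called lower in the GSK3β line and 0.616% in the GSK3α line. By p-value Sirt1 ranked 139 of 13959 in the GSK3β line and 7 in the GSK3α line. By size it stood less apart, since 625 genes in the GSK3β line and 153 in the GSK3α line had a log2 change as low as that of Sirt1 or lower. In bulk RNA, fewer cells with the transcript and less transcript per cell cannot be told apart. The Sirt1 call in the GSK3α line ended when the spread was not modelled on the mean level (adjusted p = 0.171), a setting under which 3 genes in all were called there.

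The estimated reads behind these Sirt1 values were 3671 and 3800 in the GSK3β line with 3MB-PP1 and 3421 and 4135 in that line untreated. For the GSK3α line they were 4244 and 4362 with 3MB-PP1 and 4237 and 4455 untreated. The unscaled read numbers of the groups thus overlapped, and the difference is one of reads relative to the rest of the library. The part of depth in the result was not tested. Other scalings of the libraries gave close values: the log2 change in the GSK3α line ran from -0.27 to -0.25 with equal library sums, median ratio scaling and quantile normalization. Transcripts that often collect ribosomal RNA reads (Gm42418, Gm26917 and Lars2) summed to 2230 to 2420 with 3MB-PP1 and 2010 to 2300 untreated in the GSK3β line, where 0 of 3 were called. They summed, in the GSK3α line, to 1960 to 1970 with 3MB-PP1 and 2290 to 2680 untreated, with 3 of 3 called lower. Their part in the Sirt1 result was not tested.

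The change of Sirt1 did not differ detectably between the lines. The difference of the log2 changes, GSK3β minus GSK3α line, was -0.01 (SE 0.0436, 95% interval -0.10 to 0.08, adjusted p = 0.918 by limma). The difference passed for 0 of 7 sirtuins, none with an unadjusted p under 0.05, against 6.53% of all tested genes called. Averaged over both lines, a comparison added after the values were seen, Sirt1 changed by -0.27 (SE 0.0218, adjusted p = 1.37e-07 by limma), with 5.05% of all tested genes called lower.

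**Figure D2:**
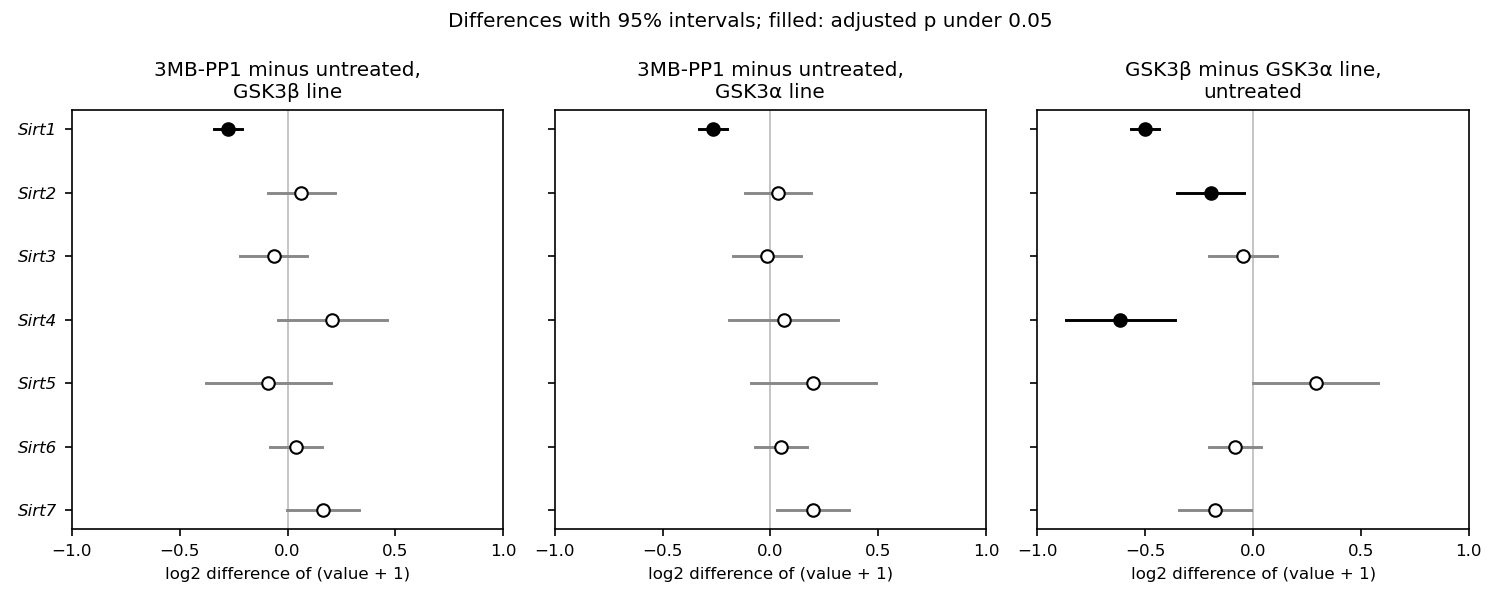
Log2 difference of (value + 1) for each sirtuin with its 95% interval in 3 comparisons, filled where the adjusted p of limma was under 0.05. Sirt1 is filled in all 3 panels, and Sirt2 and Sirt4 only between the untreated lines.

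Neither of the other nuclear sirtuins, Sirt6 and Sirt7, was called lower in either line. Sirt7 (chromosome 11, 120618372 to 120625240), which encodes a nucleolar deacetylase linked to ribosomal RNA transcription, had values of 11.4 and 10.3 in the GSK3β line with 3MB-PP1, against 9.39 and 9.75 untreated. It had 13.2 and 12.2 in the GSK3α line with 3MB-PP1, against 10.9 and 11 untreated. The treated libraries were the higher ones in both lines, with no overlap. The log2 changes were 0.16 in the GSK3β line (SE 0.0802, 95% interval -0.00 to 0.33, adjusted p = 0.187 by limma) and 0.20 in the GSK3α line (SE 0.0802, interval 0.03 to 0.37, adjusted p = 0.319), so Sirt7 passed in neither line.

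Averaged over both lines, Sirt7 changed by 0.18 (SE 0.0567, interval 0.06 to 0.30) and passed narrowly, with an adjusted p of 0.0486 by limma, where 5.11% of all tested genes were called higher. That call ended without any 1 of 7 of the 8 libraries. The adjusted p was 0.0987 and 0.0860 without replicate 1 or 2 of the untreated GSK3α line, 0.195 and 0.0652 without replicate 1 or 2 of that line with 3MB-PP1, 0.123 and 0.0528 without replicate 1 or 2 of the untreated GSK3β line, and 0.240 without replicate 1 of that line with 3MB-PP1. The values of Sirt7 rest on 240 to 380 estimated reads per library, which alone give a counting error of 5.13 to 6.45%. The gene overlaps the end of Mafg by 124 bases on the same strand. Exons of Sirt7 in coding transcripts of the basic set of GENCODE share no bases with exons of Mafg, and exons of its other transcripts were not compared. Mafg, which encodes a small MAF transcription factor, averaged 72.5 ± 1.42 with 3MB-PP1 and 63.8 ± 1.67 untreated in the GSK3β line (SD, n = 2, log2 change 0.18, adjusted p = 0.00271 by limma), and this call ended without replicate 1 of the treated GSK3β line (adjusted p = 0.0610). Mafg averaged 71.7 ± 1.02 with 3MB-PP1 and 73.4 ± 1.34 untreated in the GSK3α line (log2 change -0.03, adjusted p = 0.788). The part of Mafg reads in the Sirt7 values was not tested.

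Sirt6 (chromosome 10, 81621785 to 81627797) encodes a chromatin enzyme that acts on histone H3. It had 21.7 and 22.5 in the GSK3β line with 3MB-PP1, against 21.4 and 21.5 untreated, and 23.3 and 24.1 in the GSK3α line with 3MB-PP1, against 22.2 and 23.5 untreated. All 8 libraries lay within this narrow span. The groups overlapped in the GSK3α line and stood just apart, treated above untreated, in the GSK3β line. The log2 changes were 0.04 in the GSK3β line (adjusted p = 0.710 by limma) and 0.05 in the GSK3α line (adjusted p = 0.795).

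Sirt2 (chromosome 7, 28766735 to 28788661) encodes the cytosolic sirtuin that deacetylates tubulin. It had 11.1 and 11 in the GSK3β line with 3MB-PP1, against 10.6 and 10.5 untreated, and 12.2 and 12.9 in the GSK3α line with 3MB-PP1, against 12.3 and 12.2 untreated. The treated GSK3β libraries were higher without overlap, by less than the fit could call: the log2 change was 0.06 there (adjusted p = 0.623 by limma) and 0.03 in the GSK3α line (adjusted p = 0.900).

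The mitochondrial sirtuins passed in neither line. Sirt3 (chromosome 7, 140863666 to 140882309), the main mitochondrial deacetylase, had 15.9 and 17.7 in the GSK3β line with 3MB-PP1, against 18.3 and 16.9 untreated, and 19.2 and 16.8 in the GSK3α line with 3MB-PP1, against 18.0 and 18.3 untreated. The groups overlapped in both lines, with log2 changes of -0.06 (adjusted p = 0.623 by limma) and -0.01 (adjusted p = 0.961). Sirt3 shares 414 of its 1724 exon bases with Ric8a and 152 with Psmd13 on the opposite strand, and Sirt2 shares 42 with Nfkbib. Group means were 47.3 to 58.7 for Ric8a and 157 to 166 for Psmd13, against a mean of 17.6 for Sirt3. Ric8a was lower in the untreated GSK3β line than in the untreated GSK3α line (log2 difference -0.21, adjusted p = 0.000485 by limma). The part of reads from these neighbours in the level of Sirt3 was not tested. Sirt1 overlaps the antisense gene Gm16145 by 13035 bases, 65 of them shared exon bases, and Gm16145 has no value in the table. The strand setting of the counting is not given in the sources used here, so reads from all these stretches, that in Sirt1 included, may have been counted for either gene.

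Sirt4 (chromosome 5, 115478010 to 115484725) encodes a mitochondrial sirtuin with weak deacetylase activity. It had 2.58 and 2.24 in the GSK3β line with 3MB-PP1, against 2.15 and 1.76 untreated, and 3.53 and 3.91 in the GSK3α line with 3MB-PP1, against 3.47 and 3.57 untreated. The treated GSK3β libraries were higher without overlap, but the log2 change of 0.21 had a 95% interval of -0.05 to 0.46 (adjusted p = 0.274 by limma). In the GSK3α line the groups overlapped and the log2 change was 0.06 (adjusted p = 0.892).

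Sirt5 (chromosome 13, 43365496 to 43395203) encodes the mitochondrial enzyme that removes succinyl and malonyl groups. It had 4.35 and 3.48 in the GSK3β line with 3MB-PP1, against 5.08 and 3.46 untreated, which overlapped (log2 change -0.09, adjusted p = 0.725 by limma). In the GSK3α line it had 3.57 and 4.24 with 3MB-PP1, against 3.25 and 3.27 untreated, higher without overlap (log2 change 0.20, SE 0.139, adjusted p = 0.617). These 2 genes rest on few reads. Sirt4 had 55 to 108 estimated reads per library, with a counting error of 9.62 to 13.5%, and Sirt5 had 73 to 145, with a counting error of 8.30 to 11.7%. The SE of a log2 change was 0.121 for Sirt4 and 0.139 for Sirt5, against 0.0308 for Sirt1, so a change as small as that of Sirt1 was hard to detect in them. For Sirt6, Sirt2, Sirt3 and Sirt7 the SE was 0.0575, 0.0736, 0.0748 and 0.0802. A change of that size was therefore also harder to detect in these 4 genes than in Sirt1, and most so in the GSK3α line, where few genes were called. The lack of a call in the other sirtuins does not show that Sirt1 alone changed.

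Treated and untreated libraries did not overlap for 5 of 7 sirtuins in the GSK3β line and 3 of 7 in the GSK3α line. Such separation is common with 2 libraries a group: it held for 57.3% of all tested genes in the GSK3β line and 42.0% in the GSK3α line, and the counts of sirtuins are to be read against those shares. The median log2 change of the 7 sirtuins was 0.04 in the GSK3β line and 0.05 in the GSK3α line, beside -0.01 and 0.01 over all tested genes. The 7 values summed to 177 and 176 in the GSK3β line with 3MB-PP1, against 201 and 196 untreated, and to 231 and 232 in the GSK3α line with 3MB-PP1, against 259 and 261 untreated. Sirt1 made up 62.2 and 61.9% of that sum in the treated GSK3β libraries and 66.7 and 67.5% in the untreated ones. Its share in the GSK3α line was 67.5 and 68.1% with 3MB-PP1 and 72.9 and 72.5% untreated.

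**Figure D3:**
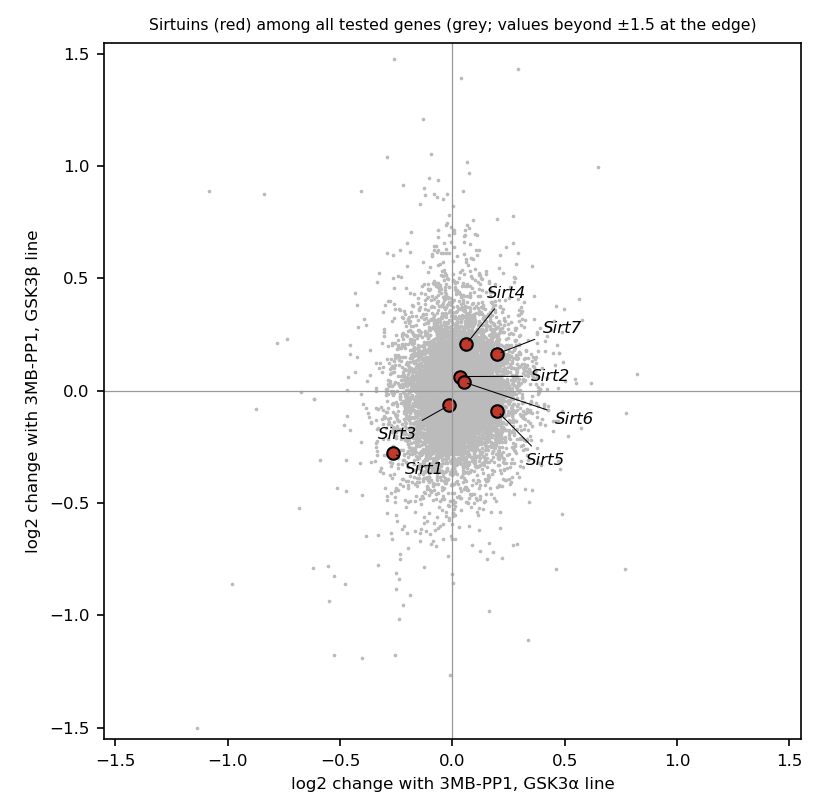
Log2 change of (value + 1) with 3MB-PP1 in the GSK3β line (vertical axis) against that in the GSK3α line (horizontal axis) for all 13959 tested genes (grey) and the 7 sirtuins (red). Sirt1 lies at the lower left, at -0.28 and -0.27, and the other sirtuins lie within the dense cloud around 0.

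Between the untreated lines, Sirt1, Sirt2 and Sirt4 were lower in the GSK3β line. Sirt1 had 134 and 133 in the untreated GSK3β line, against 188 and 189 in the untreated GSK3α line, a log2 difference of -0.50 (SE 0.0308, 95% interval -0.57 to -0.44, adjusted p = 1.78e-10 by limma). Sirt4 had 2.15 and 1.76 in the untreated GSK3β line, against 3.47 and 3.57 in the untreated GSK3α line, a log2 difference of -0.62 (SE 0.121, interval -0.87 to -0.36, adjusted p = 0.000370). With 4 in place of 1 added before the log, that of Sirt4 was -0.34 (adjusted p = 0.000328). In both genes every untreated GSK3β library was lower than every untreated GSK3α library. Sirt2 had 10.6 and 10.5 in the untreated GSK3β line, against 12.3 and 12.2 in the untreated GSK3α line, a log2 difference of -0.20 (interval -0.35 to -0.04, adjusted p = 0.0336). The call of Sirt2 ended without any 1 of the 4 untreated libraries (adjusted p of 0.0879 to 0.0996) and with equal library sums (log2 -0.15, adjusted p = 0.0988). These 3 genes were lower in the untreated GSK3β line, where 25.9% of all tested genes were called lower, which is a comparison of 1 line with 1 other.

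The other members did not pass between the untreated lines. Sirt7 had a log2 difference of -0.18 (adjusted p = 0.0779 by limma), Sirt6 of -0.08 (adjusted p = 0.239) and Sirt3 of -0.05 (adjusted p = 0.636). Sirt5 had 5.08 and 3.46 in the untreated GSK3β line, against 3.25 and 3.27 in the untreated GSK3α line, a log2 difference of 0.29 (adjusted p = 0.0930). It passed only without replicate 2 of the untreated GSK3β line (log2 0.51, adjusted p = 0.00781), so 1 library decides that value. The untreated libraries of the lines did not overlap for 6 of 7 sirtuins, against 72.2% of all tested genes. With 3MB-PP1 the ratio of Sirt1, GSK3β over GSK3α line, was 0.698, beside 0.704 in untreated cells.

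The region before the RefSeq start of Sirt1 is shown because Sirt1 is the member that was called in both lines. On this strand the GENCODE gene begins at 63381704, further upstream, so the region lies inside that gene model. The sequence is from RefSeq (GRCm38.p6), chr10:63339036-63339285 on the minus strand, 250 bases that end just before the RefSeq start, and 15 of these bases are annotated as exon of Sirt1 in GENCODE. Capitals mark the E-box CACGTG, which MYC and CLOCK are both known to bind, and the GC box GGGCGG, the latter on either strand.
Sirt1 upstream: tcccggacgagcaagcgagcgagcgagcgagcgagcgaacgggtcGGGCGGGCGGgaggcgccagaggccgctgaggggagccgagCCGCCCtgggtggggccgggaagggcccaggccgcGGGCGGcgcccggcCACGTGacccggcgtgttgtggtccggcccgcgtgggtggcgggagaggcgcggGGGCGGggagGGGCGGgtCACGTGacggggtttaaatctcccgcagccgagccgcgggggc
This stretch holds 79.2% G or C and 39 CpG dinucleotides, against medians of 52.4% and 6 over 32851 RefSeq promoters. CACGTG, which reads the same on both strands, begins at -115 and -43 from the start, and the second site overlaps a TGACG, the core of a cyclic AMP response element, that begins at -39. GGGCGG begins at -205, -201, -164, -129, -61 and -51 on either strand, and the first pair overlap each other. No match was found in these 250 bases for CTTTG (the TCF/LEF core), CCGGAAG (an ETS core) or GTAAACA (forkhead). In the same upstream stretches of all promoters, on both strands, CACGTG was present in 6.02%, GGGCGG in 32.7%, TGACG in 17.8%, CTTTG in 48.6%, CCGGAAG in 6.91% and GTAAACA in 3.17%. The windows of the other 6 sirtuins hold no CACGTG. The GC box is also found in windows of Sirt2, Sirt3, Sirt5, Sirt6 and Sirt7. The core of the cyclic AMP response element is also found in windows of Sirt3 and Sirt4. The TCF/LEF core is also absent from the windows of Sirt2, Sirt3, Sirt4 and Sirt6. A match is a description of letters only and shows no binding.

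The genes around sirtuin function were read from 6 lists of enzymes, partners and substrates. Of all tested genes, 7.49% were called higher in the GSK3β line and 0.265% in the GSK3α line, beside the shares called lower given above. Among 22 tested regulators and partners of SIRT1, 3 rose and 2 fell in the GSK3β line, and 1 rose and 2 fell in the GSK3α line. Myc, a transcription factor that stands in a regulatory loop with SIRT1, averaged 20.1 ± 0.0352 with 3MB-PP1 and 37.3 ± 0.189 untreated in the GSK3β line (SD, n = 2), a fold of 0.551 (adjusted p = 4.79e-08 by limma). Myc averaged 27.2 ± 1.26 with 3MB-PP1 and 38.4 ± 5.18 untreated in the GSK3α line, a fold of 0.719 (adjusted p = 0.00154). Mdm2, which encodes the ubiquitin ligase of p53, averaged 152 with 3MB-PP1 and 176 untreated in the GSK3β line (adjusted p = 0.000131). Arntl, a clock transcription factor, had 31.2 with 3MB-PP1 and 26.5 untreated there (adjusted p = 0.00471). Usp22, a deubiquitinase of the SAGA complex, had 204 with 3MB-PP1 and 188 untreated there (adjusted p = 0.0205). In the GSK3α line E2f1, a cell cycle transcription factor, had 39.9 with 3MB-PP1 and 33.3 untreated (adjusted p = 0.0208). Mycn, a paralog of Myc, had 118 with 3MB-PP1 and 132 untreated (adjusted p = 0.0304).

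No enzyme of NAD+ synthesis or salvage was called in either line, with 12 of 21 listed genes tested and median log2 changes of -0.02 in the GSK3β line and 0.05 in the GSK3α line. Nampt, the rate-limiting enzyme of the salvage route, averaged 136 with 3MB-PP1 and 133 untreated in the GSK3β line (adjusted p = 0.572 by limma), and 130 with 3MB-PP1 and 132 untreated in the GSK3α line (adjusted p = 0.861). Among 17 tested other consumers of NAD+, 2 rose and 1 fell in the GSK3β line and 1 fell in the GSK3α line. Cd38, an NAD+ glycohydrolase, had 31.6 with 3MB-PP1 and 26.1 untreated in the GSK3β line (adjusted p = 0.00634). Parp1, the ADP-ribose polymerase that senses DNA damage, had 892 with 3MB-PP1 and 837 untreated in the GSK3β line (adjusted p = 0.0394). Parp10, a mono-ADP-ribosyltransferase, had 3.92 with 3MB-PP1 and 5.39 untreated there (log2 change -0.38, adjusted p = 0.0164, and -0.24 with 4 added before the log). Tiparp, another enzyme of that kind, had 66.4 with 3MB-PP1 and 77.8 untreated in the GSK3α line (adjusted p = 0.00590). None of the 11 zinc-dependent histone deacetylases was called in either line.

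Of 18 tested nuclear and cytosolic substrates of sirtuins, 1 rose and 2 fell in the GSK3β line, and of 18 tested mitochondrial substrates 3 rose and 1 fell. None of either list was called in the GSK3α line. These counts lie near those of all tested genes, of which 2084 of 13959 were called in either direction in the GSK3β line and 123 in the GSK3α line, so they are no result about the substrates. Foxo1, which encodes a FOXO transcription factor that SIRT1 deacetylates, averaged 25.2 with 3MB-PP1 and 30.6 untreated in the GSK3β line (adjusted p = 0.00267 by limma). Foxo4, of the same family, averaged 58.9 with 3MB-PP1 and 67.6 untreated (adjusted p = 0.00807). Stat3, a transcription factor of cytokine signalling, had 44.7 with 3MB-PP1 and 38.9 untreated (adjusted p = 0.0410). Of the substrates of SIRT3, Sod2, the mitochondrial superoxide dismutase, had 134 with 3MB-PP1 and 117 untreated (adjusted p = 0.000799) in the GSK3β line. Pdha1, of the pyruvate dehydrogenase complex, had 369 with 3MB-PP1 and 346 untreated there (adjusted p = 0.0339). Acadl, a dehydrogenase of fatty acid oxidation, had 24.4 with 3MB-PP1 and 27.8 untreated (adjusted p = 0.0247). The difference between the lines itself passed for Sod2 (0.19, adjusted p = 0.0282), Myc (-0.38, adjusted p = 0.0208), E2f1 (-0.27, adjusted p = 0.0353), Tiparp (0.25, adjusted p = 0.00875) and Parp10 (-0.54, adjusted p = 0.0306) among the genes of the 6 lists named here as called. With no mean-variance trend, Sod2 (adjusted p = 0.0532 by limma), Acadl, Cd38, Foxo4, Parp1, Pdha1, Stat3 and Usp22 were no longer called in the GSK3β line. In the GSK3α line none of E2f1, Myc, Mycn and Tiparp was called under that setting (0.224 to 0.295). Quantile normalization ended the calls of Mycn in the GSK3α line (0.0710) and Pdha1 in the GSK3β line (0.0732). Equal library sums ended those of Pdha1 (0.0513) and Parp1 (0.0577) in the GSK3β line.

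Many of these calls ended when 1 library was left out, often with a change of similar size: without replicate 1 of the treated GSK3β line the log2 change was -0.18 for Acadl, as with all libraries, 0.10 for Parp1 (0.09 with all) and 0.22 for Arntl (0.23 with all). For Stat3 it was 0.10 without that library and 0.29 without replicate 2 of the same group (adjusted p = 0.00872 by limma), against 0.19 with all. In the GSK3β line 3 of the 13 named calls, Myc, Mdm2 and Sod2, held without each library in turn. Without replicate 1 of the treated GSK3β line 9 ended (Acadl, Arntl, Foxo1, Foxo4, Parp1, Parp10, Pdha1, Stat3 and Usp22, adjusted p of 0.0595 to 0.504), and without replicate 2 of that group 6 ended (Acadl, Cd38, Parp1, Parp10, Pdha1 and Usp22, 0.0663 to 0.192). Without replicate 1 of the untreated GSK3β line 7 ended (Acadl, Foxo4, Parp1, Parp10, Pdha1, Stat3 and Usp22, 0.0659 to 0.242), and without replicate 2 Pdha1 and Stat3 ended (0.0784 to 0.0902). Parp1 also ended without either treated GSK3α library (0.0573 and 0.0575). All 4 named calls of the GSK3α line ended without replicate 1 of its treated group (0.0717 to 0.391), E2f1 and Mycn without replicate 2 of that group (0.130 to 0.145), Mycn without replicate 1 of its untreated group (0.0715), and E2f1, Mycn and Tiparp without replicate 2 of that group (0.0578 to 0.200).

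**Figure D4:**
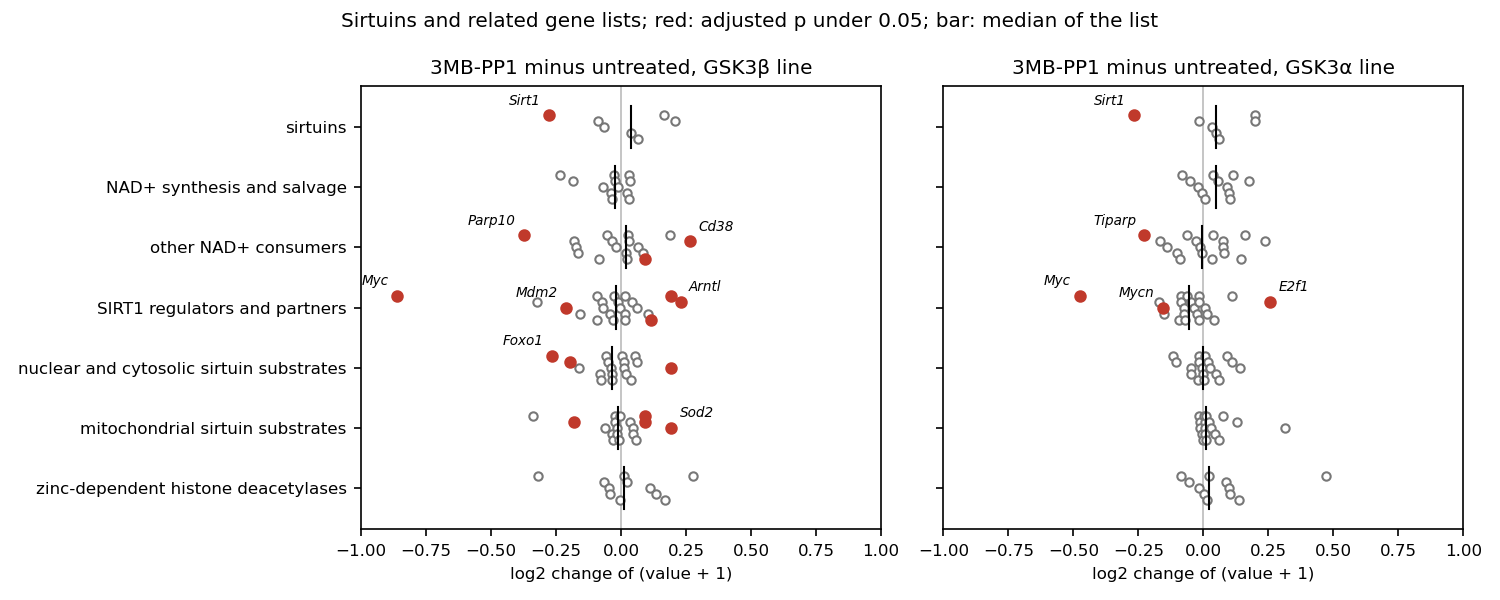
Log2 change of (value + 1) with 3MB-PP1 for the sirtuins and for each gene of 6 related lists in the GSK3β line (left) and the GSK3α line (right), in red where the adjusted p of limma was under 0.05, with a bar at the median of each list. The medians of all lists lie close to 0 in both lines, and Myc is the lowest point of both panels.

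In the marker lists of other cell types, with 6 tested each, 2 neural markers were called higher and 1 lower in the GSK3β line, 1 trophoblast marker higher, and 3 markers of 2-cell-like cells lower. Of the 10 embryonic stem cell markers 3 were called higher and 3 lower there. Beside these counts stand the 7.49% of all tested genes called higher and the 7.44% called lower in that line. In the GSK3α line 1 embryonic stem cell marker was called higher and none of these other markers passed. The 6 neural markers analysed summed to 225 to 233 with 3MB-PP1 and 164 to 175 untreated in the GSK3β line, and to 168 to 170 with 3MB-PP1 and 153 to 160 untreated in the GSK3α line. Of 8 trophoblast markers 7 had values, all but Elf5, and summed to 69.8 to 74.2 with 3MB-PP1 and 42.9 to 49.4 untreated in the GSK3β line, and to 60.6 to 63.1 with 3MB-PP1 and 62.5 to 64.3 untreated in the GSK3α line. The 8 markers of 2-cell-like cells summed to 360 with 3MB-PP1 and 374 to 381 untreated in the GSK3β line, and to 382 to 389 with 3MB-PP1 and 398 to 405 untreated in the GSK3α line. The part of these in the sirtuin values was not tested.

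The 5 genes whose values were most like those of Sirt1 over the 8 libraries, of 10802 with a mean of at least 5, were F2rl1, Rest, Spry2, Ppp1cb and Hbegf, with Pearson r of 0.995, 0.994, 0.993, 0.992 and 0.991. These are descriptions over 8 libraries that share 4 group means, chosen as the highest of many. Hbegf, a ligand of the EGF receptor, averaged 12.8 with 3MB-PP1 and 16.5 untreated in the GSK3β line and 18.5 with 3MB-PP1 and 23.3 untreated in the GSK3α line. Rest, the repressor of neuronal genes, averaged 252 with 3MB-PP1 and 285 untreated in the GSK3β line and 332 with 3MB-PP1 and 370 untreated in the GSK3α line. Spry2, a feedback inhibitor of receptor tyrosine kinase signalling, averaged 27.3 with 3MB-PP1 and 30.8 untreated in the GSK3β line and 36.8 with 3MB-PP1 and 42.6 untreated in the GSK3α line. In all 5 the order of the 4 group means was that of Sirt1, highest in the untreated GSK3α line and lowest in the treated GSK3β line. Their choice by correlation made this order likely, so neither it nor the p-values below are separate evidence. The fall with 3MB-PP1 was not called in all of them. Ppp1cb passed in neither line (log2 change -0.04, adjusted p = 0.341 by limma, in the GSK3β line and -0.06, adjusted p = 0.412, in the GSK3α line). F2rl1 passed in the GSK3β line (adjusted p = 0.000688) and not in the GSK3α line (adjusted p = 0.0716). Sirt4 had the largest range of group means among the other sirtuins, 0.68 on the log2(value + 1) scale against 0.78 for Sirt1. The 5 genes most like Sirt4 were Mettl17, 9430015G10Rik, Arl6ip5, Gas5 and Zfp667, with r of 0.994, 0.992, 0.991, 0.991 and 0.989.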

How the data were processed

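RNA of 8 libraries was analysed. The authors deposited signal values, which are gene counts estimated with TopHat2 and Partek on mm10 per the submitters' processing notes and, from the values, scaled to the same upper quartile in each library. Versions, annotation and strand setting are not given in the sources used here. The smallest value of a library was taken as 1 read. In that unit 63.0 to 67.2% of the values at or under 20 reads lay within 0.1 of a whole number, so no count model was fitted. Of 48321 genes, 30833 had no values in any library. Genes with a mean of at least 1 (13959) were tested on log2(value + 1) with limma-trend (limma 3.58.1, R 4.3.3, data.table version 1.17.8). The fit had 1 mean per group and 4 residual degrees of freedom, and p-values were two-sided and adjusted over all tested genes. The test was run on simulated counts with an assumed spread between libraries, in which 200 genes were changed in the treated GSK3α group. Those changes were larger than that of Sirt1, so the run does not show how the test does with changes of that size. It also does not cover fractional values or the spread of these libraries. Intervals and counting errors cover the spread of libraries and reads only.

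The 7 members, the 6 lists of related genes, the 7 marker lists and the tests were chosen with earlier results of these data known, so no p-value here is independent evidence for the family. Genes named besides the sirtuins were Gsk3a and Gsk3b, up to 2 genes higher and 2 lower with the smallest adjusted p per list and line, and the 5 genes most correlated with Sirt1 and with the other sirtuin of largest range. Nampt and the neighbours of sirtuin genes were added after their values were seen. Alternatives were 2 other added constants (0.25 and 4), no filter, 3 scalings, no mean-variance trend, a replicate block, the compared groups alone, and each library left out.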

Additional observations from a re-analysis of the deposited data

How the results depend on the processing

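The fall of Sirt1 in the GSK3β line passed under all 17 alternatives (log2 -0.30 to -0.27). In the GSK3α line it passed under 16 of 17, and with no mean-variance trend the number of sirtuins called there was 0. Without each library the number called stayed at 1 in each line. The lower Sirt1 and Sirt4 of the untreated GSK3β line passed under all 17. The call of Sirt2 also ended with only the untreated groups in the fit (adjusted p = 0.0615). For the average over both lines the number called was 1 in place of 2 with no filter on low values, equal library sums, quantile normalization, no mean-variance trend and the replicate block, since Sirt7 did not pass (adjusted p of 0.0645, 0.0507, 0.0802, 0.0853 and 0.0569), and 1 to 2 without each library (Sirt7 log2 0.15 to 0.22). The labels do not say that the replicate numbers mark pairs. Deviations of same-numbered libraries correlated at -0.0447 to 0.0271, and the replicate block changed no other call of a sirtuin.

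Signs of values that passed no test turned as follows. With median ratio scaling the difference between the lines became 0.00652 for Sirt1 and 0.00710 for Sirt6, with quantile normalization it became 0.00173 for Sirt6 and 0.00983 for Sirt7, and with equal library sums the untreated difference of Sirt3 became 0.00134. Leaving out each library, values turned sign within these ranges, with no call: in the GSK3β line -0.14 to 0.0095 for Sirt3 and -0.31 to 0.13 for Sirt5, and in the GSK3α line -0.11 to 0.078 for Sirt3. The difference between the lines ran from -0.0061 to 0.063 for Sirt2, -0.14 to 0.043 for Sirt3, -0.049 to 0.028 for Sirt6 and -0.10 to 0.034 for Sirt7, the untreated difference of Sirt3 from -0.10 to 0.0084, and the average from -0.086 to 0.0065 for Sirt3 and -0.057 to 0.17 for Sirt5.

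The number of all genes called with no mean-variance trend was 980 against 2084 in the GSK3β line, 3 against 123 in the GSK3α line, 133 against 911 for the difference and 426 against 1418 for the average. Without each library these counts ran from 855 to 2272, 17 to 191, 351 to 1339 and 694 to 1657. The causes of these changes were not tested. Sirt4 and Sirt5 had the fewest estimated reads and the largest counting errors of the sirtuins, and the part of depth in this was not tested.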
